A study of Mus musculus with 2 samples.

Results

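Transcript levels of 9 genes that write, erase or read DNA methylation were followed through every cell class of the embryonic mouse dorsal telencephalon. The genes were taken by symbol from the 32285 genes of the count files, and all 9 were found: the writers *Dnmt1*, *Dnmt3a* and *Dnmt3b* with the writer cofactor *Uhrf1*, the erasers *Tet1*, *Tet2* and *Tet3*, and the readers *Mbd2* and *Mbd3*. The data are single-cell UMI counts (unique molecular identifiers, 1 per captured transcript) from 2 libraries of a single group, replicates 1 and 3, of E14.5 embryos labelled WT in a mouse line named for *Eomes* and *Mllt3*. The labels do not say whether these WT embryos carry a Cre or floxed allele of that line, and the study's methods name C57BL/6J embryos. The labelled source is brain hemispheres, whereas the protocol names the dorsal telencephalon, dissociated with papain and run with the 10x Genomics 3' kit. The study's methods state that samples were loaded independently, but the sources used here do not tie either library to 1 embryo or to a pool, so the spread between libraries may be technical in part.

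DNA methylation places a methyl group on cytosines that are mostly followed by guanine (CpG sites). DNMT3A and DNMT3B set new marks. DNMT1 copies them onto the new strand after replication, guided by UHRF1, which binds hemimethylated DNA. The TET dioxygenases oxidise the methyl group, from which point the mark can be lost by replication or repair. MBD2 binds methylated CpGs and MBD3, its close relative, binds them poorly in mammals, and each is a subunit of alternative forms of the NuRD chromatin remodelling complex. In the developing cortex radial glial cells (RGCs) give rise to intermediate progenitor cells (IPCs) and these to excitatory projection neurons, while inhibitory interneurons arrive from the medial ganglionic eminence (MGE).

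The libraries held 6163 and 8870 barcodes with 64182006 and 93295807 UMIs, 23 barcodes occurred in both, and 5163 and 6919 cells were kept. Clustering without the 9 genes gave 25 clusters, of which 24 were named from marker genes. Cells per class in replicates 1 and 3 were 741 and 1684 RGC-like, 535 and 1077 IPC-like, 2798 and 3177 projection neuron-like, and 334 and 225 MGE interneuron-like. The LGE neuron-like class (lateral ganglionic eminence) was mostly from replicate 1, with 447 against 31 cells, and its leading genes also held *Adarb2*, a marker of another interneuron class. The hem or choroid plexus-like class was mostly from replicate 3, with 17 against 132 cells. The hem or choroid plexus-like class entered no test. The LGE neuron-like class was in the fit of 9 classes used for the vascular, meningeal and Cajal-Retzius-like classes and shared in its estimate of the spread, though no comparison of it is reported. The microglia-like class (14 and 18 cells) was led by *Pf4* and *Mrc1*, which are typical of macrophages at brain borders. MGE interneuron-like cells were shallow, with medians of 4545 and 4057 UMIs, against 12482 and 11763 UMIs in RGC-like cells. Levels are given as CPM, counts of a gene scaled to the total UMIs of its class. In a 3' assay they were compared between classes for each gene and not between genes.

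In GRCm38.p6, the release of the submitters' build mm10, *Dnmt1* spans chr9:20907206-20959888 on the minus strand and *Uhrf1* spans chr17:56303337-56323486 on the plus strand. *Dnmt3a* lies at chr12:3801559-3914443, *Dnmt3b* at chr2:153649411-153687730, *Tet1* at chr10:62804570-62887469, *Tet2* at chr3:133463677-133545136, *Tet3* at chr6:83362373-83457208 and *Mbd3* at chr10:80392539-80399531. A UMI is assigned to the whole gene, so alternative starts and isoforms were not resolved.

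RefSeq promoter windows of 300 bases, from 250 before to 50 after an annotated start, were given for 8 of the 9 genes, in 13 windows. All windows of the genome table held a median of 7 CpGs, and the 13 windows a median of 22. The *Tet2* window was the richest of these, with 57 CpGs. Letters of the kind bound by E2F factors, the regulators of S phase genes, were searched on both strands as TTTCCCGC, TTTGGCGC, TTTGCCGC and TTTCGCGC. Such letters were in 2.26% of 32851 windows, and in 2 of the 13: the *Dnmt1* window chr9:20952574-20952873 and the *Uhrf1* window chr17:56304063-56304362. Every motif holds a CpG and each of these windows has 33, and the share of 2.26% was not matched for CpG content. These sequences are shown because *Dnmt1* and *Uhrf1* were also the members that rose from G1 to S, as given below. Whether the letters bear on that rise was not tested. Each is written on the strand of its gene, with the matching letters in capitals, and a match is a description of the letters only.
*Dnmt1*, chr9:20952824-20952853: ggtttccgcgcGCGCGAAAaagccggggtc
*Dnmt1*, chr9:20952574-20952603: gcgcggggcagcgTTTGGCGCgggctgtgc
*Uhrf1*, chr17:56304117-56304146: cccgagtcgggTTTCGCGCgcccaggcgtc

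The maintenance pair fell from RGC-like to projection neuron-like cells, by log2 differences of -1.15 for *Dnmt1* and -5.04 for *Uhrf1* (SE 0.15 and 0.27, edgeR adjusted p of 0.000194 and 7.73e-07). *Dnmt1*, the copying methyltransferase, was at 96.0 and 95.1 CPM in RGC-like cells of replicates 1 and 3, 63.0 and 43.1 CPM once they were IPC-like, then 38.6 and 34.8 CPM in the neurons. *Uhrf1* was at 78.3 and 76.8 CPM, 29.7 and 21.0 CPM, and 1.62 and 2.17 CPM in the same order. The replicates of neighbouring steps did not overlap for either gene. From RGC-like to IPC-like cells the log2 difference was -0.78 for *Dnmt1* (SE 0.16, edgeR adjusted p = 0.00452) and -1.54 for *Uhrf1* (SE 0.23, edgeR adjusted p = 0.000978). From IPC-like to projection neuron-like cells *Uhrf1* fell further (-3.49, SE 0.27, edgeR adjusted p = 1.69e-05). The *Dnmt1* difference at that step was -0.37 (SE 0.16) and did not pass (edgeR adjusted p = 0.0822), though it did with the replicate block (-0.36, adjusted p = 0.0293). It also passed without TMM factors (-0.51, edgeR adjusted p = 0.0273) and without the filter on low counts (-0.34, edgeR adjusted p = 0.0431). In projection neuron-like cells these levels rested on 1264 and 1235 UMIs for *Dnmt1* and on 53 and 77 UMIs for *Uhrf1*, counts not compared between genes.

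The de novo enzyme *Dnmt3a* fell at both steps, with the larger difference between RGC-like and IPC-like cells. Its levels were 119.8 and 110.5 CPM for RGC-like, 36.4 and 35.9 CPM for IPC-like and 20.5 and 19.0 CPM for projection neuron-like cells. On the log2 scale these steps were -1.58 (SE 0.10, edgeR adjusted p = 9.86e-06) and -0.73 (SE 0.10, edgeR adjusted p = 0.00041). *Dnmt3b* was sparse in all 3 classes, from 3.44 to 6.09 CPM, and its differences at both steps did not pass.

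Among the erasers, *Tet2* and *Tet3* rose from RGC-like to IPC-like cells while the *Tet1* difference did not pass. *Tet2* was at 41.7 and 43.5 CPM in RGC-like cells, 78.7 CPM in both replicates of IPC-like cells, and 57.0 and 57.8 CPM in the projection neurons. The first step was 0.97 (SE 0.09, edgeR adjusted p = 7.13e-05) and the second -0.32 (SE 0.09, edgeR adjusted p = 0.0165), the latter lost without the filter on low counts (adjusted p = 0.0887). *Tet3* was at 113 and 108 CPM, then 138 and 133 CPM, then 121 and 119 CPM, with a first step of 0.38 (SE 0.08, edgeR adjusted p = 0.00715). *Tet1* differed by -0.27 from RGC-like to IPC-like cells (SE 0.12, edgeR adjusted p = 0.0967) and passed with the replicate block (adjusted p = 0.0312) and without TMM factors (adjusted p = 0.043).

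The readers moved in opposite directions at the step into neurons. *Mbd2* was at 15.2 and 16.0 CPM before and 28.4 and 25.0 CPM after this step, and rose by 0.91 (SE 0.19, edgeR adjusted p = 0.00419). In RGC-like cells its replicates were apart, at 24.4 and 16.1 CPM, and IPC-like cells lay lower in replicate 1 and about level in replicate 3. *Mbd3* fell at the step into neurons (-0.42, SE 0.14, edgeR adjusted p = 0.0357), from 170.5 and 183 CPM to 110.4 and 130.1 CPM. That call was lost at Leiden resolutions 0.6 and 1.5 (adjusted p of 0.0587 and 0.0724).

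In counts, 5 of the 9 genes passed from RGC-like to IPC-like cells, where 42.2% of 15357 genes tested did, and 5 passed from IPC-like to projection neuron-like cells, where 46.8% of all genes did. Between the ends of the lineage, projection neuron-like against RGC-like cells, all 9 passed in either direction, against 64.7% of all genes. *Dnmt1*, *Dnmt3a*, *Dnmt3b*, *Uhrf1*, *Tet1* and *Mbd3* were lower in the neurons and *Tet2*, *Tet3* and *Mbd2* higher. Of these calls, *Tet3* and *Mbd2* were lost without TMM factors (adjusted p of 0.24 and 0.0675), and *Dnmt3b* was lost without the filter on low counts and with predicted doublets kept (adjusted p of 0.0532 and 0.0613).

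**Figure D1:**
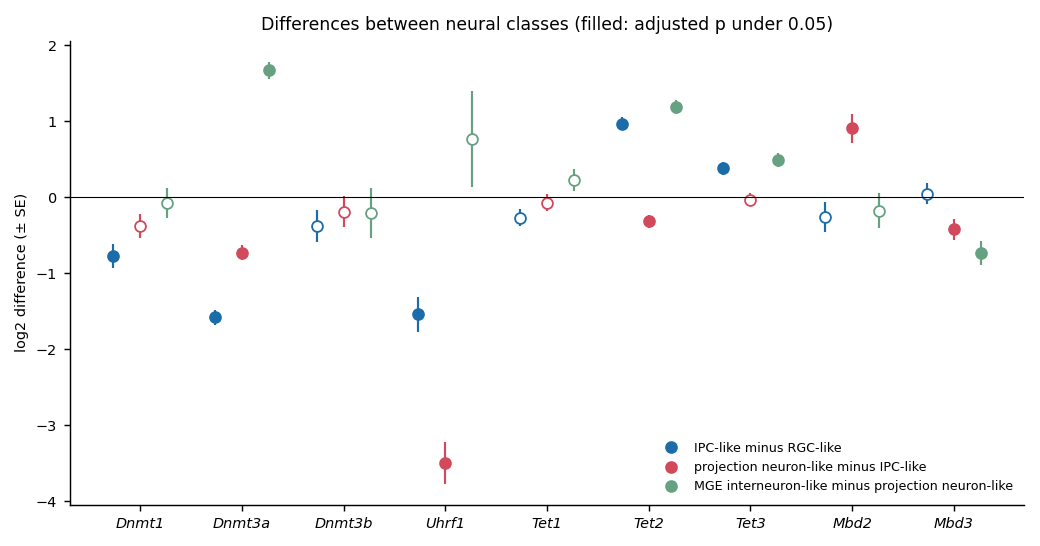
Log2 difference (y axis, ± SE, 2 libraries per class) of each gene from RGC-like to IPC-like cells (blue), IPC-like to projection neuron-like cells (red) and projection neuron-like to MGE interneuron-like cells (green), with filled points where the edgeR adjusted p is under 0.05. Of the points drawn *Uhrf1* has the lowest, -3.49 from IPC-like to projection neuron-like cells, and *Dnmt3a* is lower at both steps of the excitatory lineage and higher, by 1.67, in MGE interneuron-like cells.

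Clusters within a class, taken where each replicate had at least 50 cells, were described without a test. Among 3 IPC-like clusters *Uhrf1* ranged from 1.54 CPM in the cluster led by *Eomes*, *Rmst* and *Slc17a6* to 84.2 CPM in that led by *Top2a*, *Neil3* and *Spc25*, genes of mitosis and replication. *Dnmt1* ranged over the same clusters from 27.5 to 123 CPM, while *Tet3* stayed between 134 and 138 CPM. Among 4 RGC-like clusters *Dnmt1* was lowest, at 31.3 CPM, in the cluster led by the late mitotic genes *Cenpa* and *Cdc20*, and highest, at 133 CPM, in that led by *Tnc*, *Plce1* and *Veph1*. Among 7 projection neuron-like clusters *Tet2* was highest, at 107 CPM, in the cluster led by *Slc17a6*, *Unc5d* and *Neurod1*, which still lists *Eomes* among its leading genes, and lowest, at 38.3 CPM, in that led by *Hs3st4*, *Rgs6* and *Lrfn5*. The latter was also the lowest of the 7 for *Mbd3*, at 68.1 CPM. *Dnmt3a* was lowest in the *Slc17a6*, *Unc5d* and *Neurod1* cluster, at 10.6 CPM, and highest, at 36.1 CPM, in the cluster led by *Tafa1*, *Tfap2d* and *Tafa2*.

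MGE interneuron-like cells carried more *Tet2*, *Tet3* and *Dnmt3a* and less *Mbd3* than projection neuron-like cells. *Tet2* was at 154 and 140.4 CPM, the highest mean of any class, and exceeded projection neuron-like cells by 1.19 (SE 0.09, edgeR adjusted p = 5.31e-05) and RGC-like cells by 1.84 (SE 0.10, edgeR adjusted p = 1.46e-06). *Tet3*, at 190.4 and 189 CPM, was higher than in projection neuron-like cells by 0.49 (SE 0.09, edgeR adjusted p = 0.00319). Neither gene's replicates overlapped with those of the excitatory lineage.

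*Dnmt3a* was at 66.5 and 76.4 CPM in MGE interneuron-like cells, above projection neuron-like cells by 1.67 (SE 0.11, edgeR adjusted p = 2.46e-05) but below RGC-like cells (log2 difference -0.64, SE 0.11, edgeR adjusted p = 0.000979). *Mbd3*, at 92.1 and 69.0 CPM, was lower than in projection neuron-like cells (-0.73, SE 0.16, edgeR adjusted p = 0.0075), with -0.43 and -1.09 in the replicates. For *Dnmt1* the difference between these neuron classes was -0.07 (SE 0.20, edgeR adjusted p = 0.808), with 74 and 43 UMIs in the MGE interneuron-like cells. In all, 4 of the 9 genes passed against projection neuron-like cells, where 35.3% of all genes did, and 6 passed against RGC-like cells, where 59.0% did. The latter included *Tet3*, higher by 0.83, and *Dnmt1*, *Mbd3* and *Uhrf1*, all lower (-1.23, -1.11 and -4.26), with 2 and 9 *Uhrf1* UMIs in the interneurons. The MGE interneuron-like cells were the shallowest of these classes, and the part of depth in these differences was not tested.

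*Dnmt1* and *Uhrf1* followed the cell cycle in both progenitor classes. Phases were called from S and G2M genes that did not include the 9 genes, on cells thinned to 3000 UMIs, and the scoring genes were left out of the test. In RGC-like cells *Dnmt1* was at 41.3 and 33.4 CPM in G1, 152 and 151 CPM in S and 86.2 and 83.2 CPM in G2M. *Uhrf1* was at 15.2 and 17.4 CPM, 167 and 146 CPM, and 52.2 CPM in both replicates. S against G1 gave 2.06 for *Dnmt1* (SE 0.18, edgeR adjusted p = 1.17e-05) and 3.23 for *Uhrf1* (SE 0.20, edgeR adjusted p = 1.24e-06). G2M against G1 gave 1.21 and 1.64 (edgeR adjusted p of 0.000808 and 0.000167).

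*Tet2* ran the other way in RGC-like cells, with 63.6 and 61.4 CPM in G1, 25.8 and 33.0 CPM in S, and 39.9 and 42.2 CPM in G2M. It fell in S (-1.01, SE 0.15, edgeR adjusted p = 0.00101) and in G2M (-0.58, SE 0.15, edgeR adjusted p = 0.0249). *Dnmt3a* was at 104 and 97.7 CPM in G1 and 125 and 118 CPM in S, a difference of 0.30 that did not pass (SE 0.13, edgeR adjusted p = 0.162). With the replicate block *Tet3* also passed in S (-0.33, adjusted p = 0.0259) and *Mbd3* in G2M (0.32, adjusted p = 0.0181). Of the 9 genes 3 passed in S, where 12.4% of 12922 genes did, and 3 in G2M, where 11.4% did. With the replicate block 2878 and 2798 genes passed, against 1602 and 1469 without it.

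**Figure D2:**
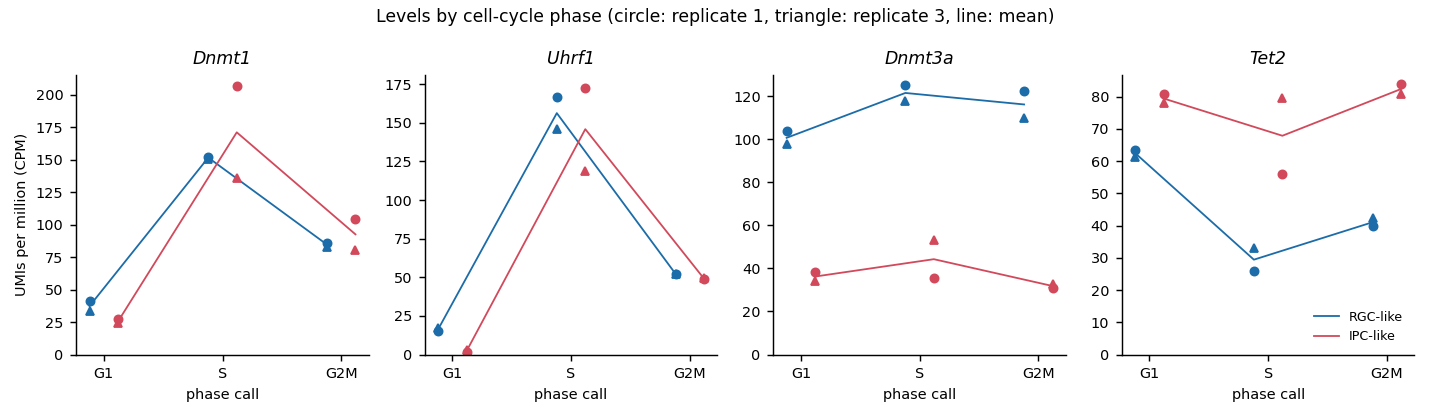
Level (y axis, CPM) of 4 genes by phase call (x axis) in RGC-like (blue) and IPC-like (red) cells, with a circle for replicate 1, a triangle for replicate 3 and a line through the means. *Dnmt1* and *Uhrf1* have their highest means in S in both classes, the RGC-like *Tet2* mean is lowest in S, and *Dnmt3a* differs more between classes than between phases.

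In IPC-like cells *Dnmt1* was at 27.1 and 23.9 CPM in G1, 207 and 136 CPM in S and 104 and 80.8 CPM in G2M. *Uhrf1* was at 1.40 and 3.11 CPM in G1 (6 and 26 UMIs), 173 and 119 CPM in S and 48.9 and 49.3 CPM in G2M. *Dnmt1* rose by 2.69 in S and 1.88 in G2M (SE 0.19 for each, edgeR adjusted p of 1.59e-06 and 2.71e-05), and *Uhrf1* by 5.58 and 4.10 (SE 0.25 and 0.26, edgeR adjusted p of 7.3e-08 and 4.09e-07). *Mbd3* rose in G2M by 0.46 (SE 0.14, edgeR adjusted p = 0.0411), a call lost with the stricter filter on cells and without the filter on low counts (adjusted p of 0.0702 and 0.168). *Tet1* passed in G2M only with the replicate block (0.47, adjusted p = 0.0186). Of the 9 genes 2 passed in S, against 17.1% of all genes, and 3 in G2M, against 17.9%.

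The S against G1 difference of *Uhrf1* was smaller in the RGC-like class than in the IPC-like class (-2.35, SE 0.32, edgeR adjusted p = 0.0123), with -3.03 and -1.99 in the separate replicates. The gap lay in G1, where RGC-like cells had 16.3 ± 1.60 CPM and IPC-like cells 2.26 ± 1.21 CPM (SD, n = 2), while in S the means were 156 ± 14.6 and 146 ± 37.9 CPM. *Uhrf1* was the only gene of the 9 to pass this test of the difference, where 0.797% of all genes passed. With the replicate block *Tet2* passed too (-0.79, adjusted p = 0.0453).

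Since the phases were unevenly represented, the IPC-like against RGC-like comparison was repeated within each phase, a choice made after the data were seen. In replicates 1 and 3, 73.8% and 78.8% of IPC-like cells were called G1, against 30.1% and 29.5% of RGC-like cells. Within S cells *Dnmt1* differed by 0.14 (SE 0.18, edgeR adjusted p = 0.654) and *Uhrf1* by -0.13 (SE 0.18, edgeR adjusted p = 0.696). Within G2M cells the differences were 0.18 and -0.02 (SE 0.18 and 0.20, edgeR adjusted p of 0.5 and 0.959). Within G1 cells *Uhrf1* was lower in IPC-like cells (-2.48, SE 0.27, edgeR adjusted p = 3.04e-05), and *Dnmt1* differed by -0.49 (SE 0.19, edgeR adjusted p = 0.0655). The *Dnmt1* difference in G1 passed with the replicate block (-0.49, adjusted p = 0.0146) and with phase scores at 1500 UMIs (-0.62, adjusted p = 0.0231). A G1 call does not separate cycling cells from cells that have left the cycle.

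*Dnmt3a* was lower in IPC-like cells within every phase, with -1.43 in G1, -1.41 in S and -1.78 in G2M (edgeR adjusted p of 1.34e-05, 0.000126 and 8.56e-06). *Tet2* was higher in S by 1.18 and in G2M by 1.06 (edgeR adjusted p of 0.000716 and 0.000351), with 0.38 in G1 (adjusted p = 0.0599). The G1 difference of *Tet2* passed with the replicate block (0.39, adjusted p = 0.0157), without the filter on low counts, with the stricter filter on cells and with phase scores at 1500 UMIs (adjusted p of 0.0224, 0.0272 and 0.0145). That of *Tet1*, -0.37 with an edgeR adjusted p of 0.0978, passed with the replicate block (-0.38, adjusted p = 0.0155). *Tet3* passed in G2M alone, with 0.41 (edgeR adjusted p = 0.0238), a call lost without TMM factors and without the filter on low counts (adjusted p of 0.0538 and 0.228). *Tet1* was lower in S (-0.74, edgeR adjusted p = 0.0362), a call lost by DESeq2 and with phase scores at 1500 UMIs (adjusted p of 0.0547 and 0.079). Within phases 2, 3 and 3 of the 9 genes passed in G1, S and G2M, where 32.2%, 16.9% and 26.3% of all genes did. With the replicate block 5 passed in G1, but these shares of all genes are from the fit without it.

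**Figure D3:**
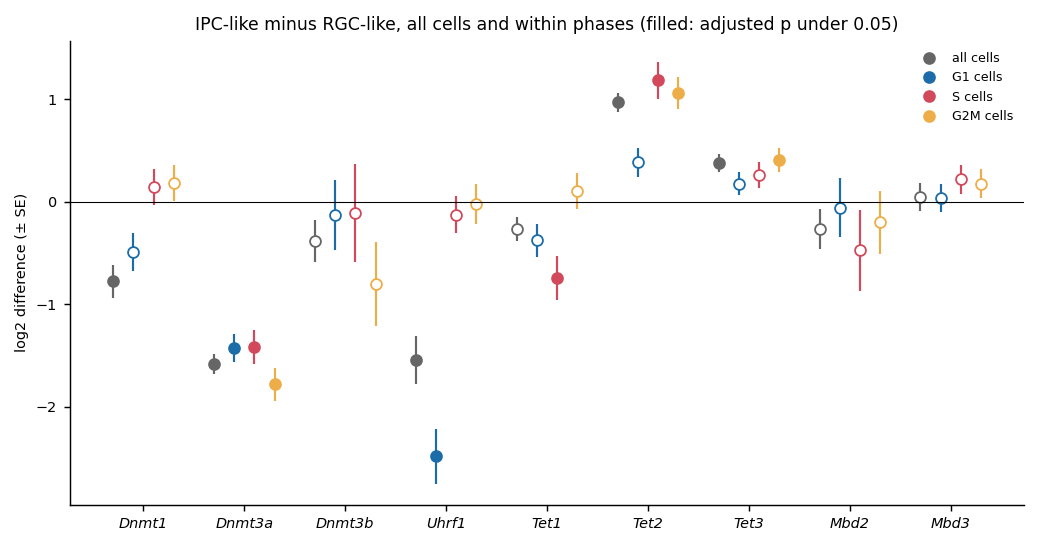
Log2 difference (y axis, ± SE) between IPC-like and RGC-like cells for each gene, over all cells (grey) and within G1, S and G2M cells, with filled points where the edgeR adjusted p is under 0.05. *Dnmt3a* stays between -1.78 and -1.41 in every setting, whereas *Dnmt1* and *Uhrf1* lie near 0 within S and G2M cells.

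Outside the neural lineage *Dnmt3b* stood out in vascular cells. It was at 37.2 and 35.4 CPM in endothelial-like cells (19 and 28 UMIs in 23 and 48 cells) and at 11.7 and 28.9 CPM in pericyte-like cells (6 and 18 UMIs), against 6.09 and 6.08 CPM in RGC-like cells. The difference from RGC-like cells was 2.66 in endothelial-like (SE 0.34, edgeR adjusted p = 7.67e-06) and 1.83 in pericyte-like cells (SE 0.39, edgeR adjusted p = 0.00145). The endothelial-like UMIs were spread over 9 of 23 and 16 of 48 cells (39.1% and 33.3%, median depths of 17611 and 11147 UMIs). In projection neuron-like cells, of similar depth in replicate 3, 3.65% and 3.78% of cells had a *Dnmt3b* UMI. With each cell thinned to 3000 UMIs, 3 of 23 and 1 of 41 endothelial-like cells had one (13.0% and 2.44%, 95% Wilson intervals of 4.54 to 32.1% and 0.432 to 12.6%), 7 shallower cells of replicate 3 being left out. The thinned shares in projection neuron-like cells were 1.03% and 0.817%, so that in replicate 3 the thinned shares of both classes did not differ beyond counting error. The pericyte-like replicates were apart, with the larger difference, 2.29, in replicate 3.

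*Mbd2* was higher in all 3 vascular and meningeal classes than in RGC-like cells. It was at 48.9 and 55.6 CPM in endothelial-like, 70.2 and 57.7 CPM in pericyte-like, and 71.8 and 35.6 CPM in meningeal-like cells. The differences were 1.53, 1.75 and 1.40 (SE 0.29, 0.29 and 0.27, edgeR adjusted p of 0.000472, 0.000157 and 0.000458).

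*Tet1* was lower in endothelial-like cells, at 17.6 and 8.84 CPM (-1.79, SE 0.31, edgeR adjusted p = 0.000195), and in pericyte-like cells (-0.96, SE 0.28, edgeR adjusted p = 0.0122). *Dnmt1* was lower in endothelial-like cells (-1.14) and in meningeal-like cells (-1.77, edgeR adjusted p of 0.00161 and 1.66e-05). *Uhrf1* was lower in the same classes (-1.47 and -1.87, edgeR adjusted p of 0.00717 and 0.000612). In pericyte-like cells *Uhrf1* differed by -0.97 (edgeR adjusted p = 0.0564, or 0.0349 with the replicate block). That difference also passed without TMM factors and without the filter on low counts (edgeR adjusted p of 0.0358 and 0.000546). At Leiden resolutions 0.6 and 1.5 it passed too (0.0135 and 0.00869). It did not by DESeq2, with the stricter filter on cells or with doublets kept. *Tet2* was higher in meningeal-like cells by 0.85 (edgeR adjusted p = 0.00162) and *Tet3* lower (-0.72, edgeR adjusted p = 0.0048). *Tet3* was also lower in pericyte-like cells (-0.56, edgeR adjusted p = 0.0376), which DESeq2 did not call (adjusted p = 0.0527), and *Dnmt3a* was lower in endothelial-like cells (-1.05, edgeR adjusted p = 0.00107).

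Of the 9 genes 6 passed in endothelial-like cells (41.5% of 13355 genes tested), 4 in pericyte-like cells (36.8%) and 5 in meningeal-like cells (46.1%). The counts of cells are low, so intervals are wide, and these comparisons share the RGC-like cells. With the LGE neuron-like class left out of the fit, an alternative chosen after the data were seen, the calls given for these classes held. *Uhrf1* in pericyte-like (-1.02), *Mbd3* in endothelial-like (-0.54) and *Tet2* in Cajal-Retzius-like cells (-0.58) then passed too (edgeR adjusted p of 0.0205, 0.0478 and 0.0477). That of *Mbd3* also passed without TMM factors and without the filter on low counts (edgeR adjusted p of 0.0451 and 0.0354). With doublets kept and at Leiden 0.6 it passed as well (0.0487 and 0.0498). That of *Tet2* passed without the filter on low counts and with doublets kept (edgeR adjusted p of 0.0326 and 0.017).

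**Figure D4:**
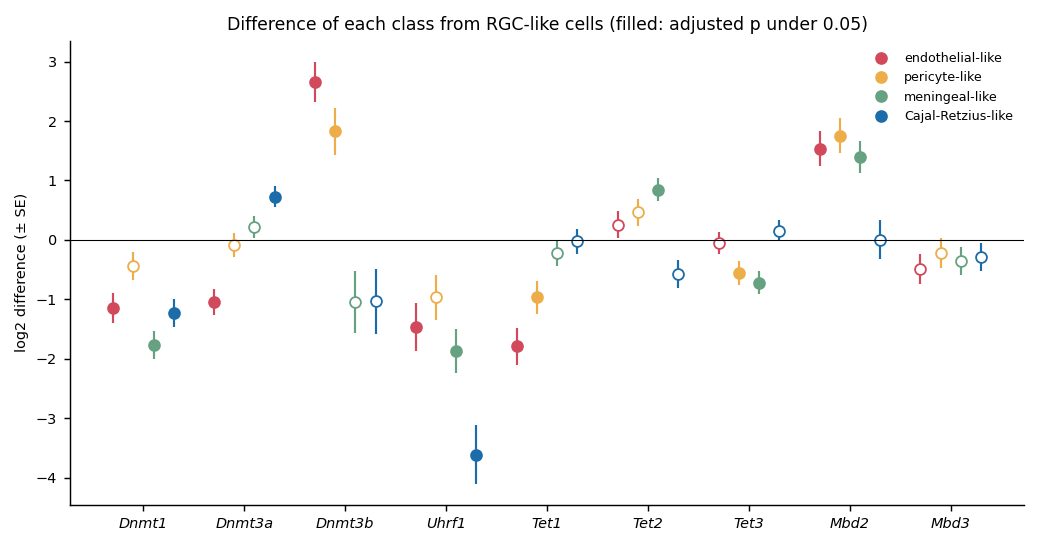
Log2 difference (y axis, ± SE) of each gene in endothelial-like, pericyte-like, meningeal-like and Cajal-Retzius-like cells from RGC-like cells, with filled points where the edgeR adjusted p is under 0.05. *Dnmt3b* is raised in the endothelial-like and pericyte-like classes, *Mbd2* in those and the meningeal-like class, and *Dnmt3a* in the Cajal-Retzius-like class.

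Cajal-Retzius-like cells, the early neurons of the marginal zone that secrete reelin, held the highest *Dnmt3a* level of all classes, 215 and 177 CPM. This exceeded RGC-like cells by 0.73 (SE 0.18, edgeR adjusted p = 0.00358), and the replicates did not overlap with those of the next class, meningeal-like cells at 154 and 103 CPM. *Dnmt1* was lower than in RGC-like cells (-1.23), as was *Uhrf1* (-3.61, edgeR adjusted p of 0.00044 and 1.79e-05). These were 3 of the 9 genes, against 43.7% of all genes. *Dnmt3a* thus differed among neuron classes, from 20.5 and 19.0 CPM in projection neuron-like to 215 and 177 CPM in Cajal-Retzius-like cells.

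The order of classes was firm only in places. For *Dnmt1* and for *Uhrf1* RGC-like cells were highest and did not overlap with the next class, pericyte-like cells (62.4 and 68.9 CPM for *Dnmt1*, 33.1 and 40.1 CPM for *Uhrf1*), while below that each class overlapped with its neighbour. For *Tet2* the MGE interneuron-like and LGE neuron-like classes (94.8 and 140.6 CPM) overlapped with each other and lay above the rest. For *Mbd3* RGC-like and IPC-like cells had the highest means but overlapped with each other and with Cajal-Retzius-like cells (128.1 and 172.8 CPM). From there overlap ran on from neighbour to neighbour to hem or choroid plexus-like cells. For *Tet1* the 7 highest classes overlapped from neighbour to neighbour, from hem or choroid plexus-like cells (76.7 and 20.4 CPM) to IPC-like cells. In LGE neuron-like cells *Uhrf1* had 94 UMIs in replicate 1 and 0 in replicate 3, where 3 UMIs would be 21.1 CPM, so that library could not show a low level. The red blood cell-like class joins a cluster of red cell genes with a cluster of low depth that also shows radial glial and neuronal markers. *Tet3* was at 8.89 CPM in the former and 69.9 CPM in the latter, so the level of the class is that of a mixture.

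**Figure D5:**
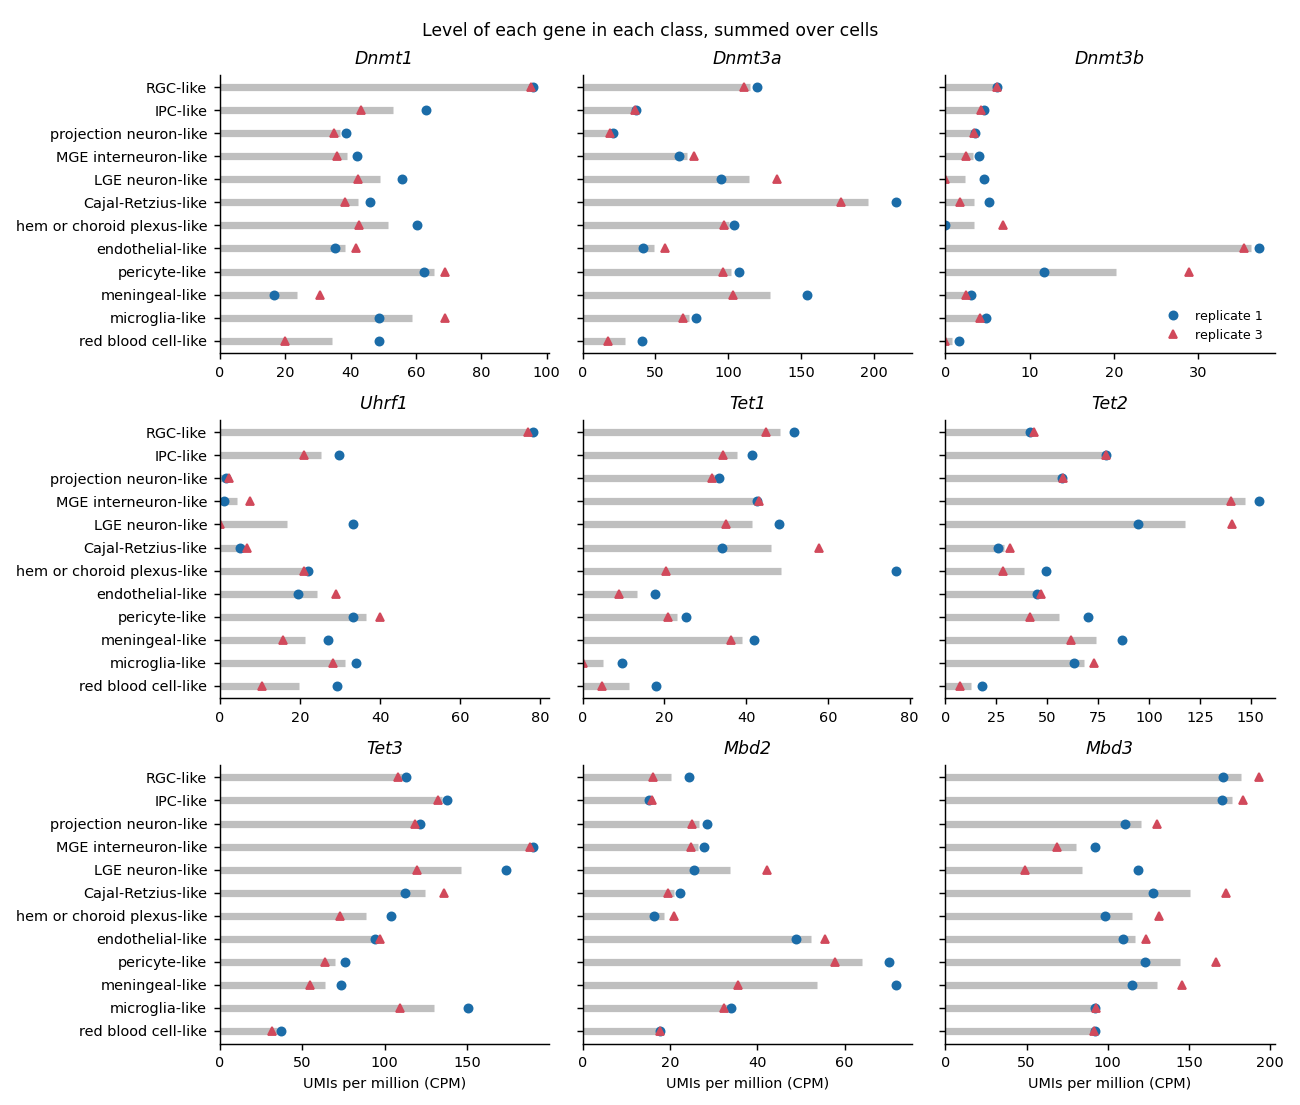
Level (x axis, CPM) of each of the 9 genes in 12 named classes, with a circle for replicate 1, a triangle for replicate 3 and a grey bar from 0 to their mean. The highest bars are RGC-like for *Dnmt1*, *Uhrf1* and *Mbd3*, Cajal-Retzius-like for *Dnmt3a*, endothelial-like for *Dnmt3b*, and MGE interneuron-like for *Tet2* and *Tet3*.

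Genes with the most similar course were ranked by Pearson correlation of log2(CPM + 1) over the mean levels of 9 classes, as a description over 7660 genes. For *Uhrf1* these were *Ect2* (0.986), *Smc4* (0.984) and *Cenph* (0.981), which serve cytokinesis, chromosome condensation and the kinetochore. For *Dnmt3b* they were the endothelial adhesion gene *Esam* (0.973), *Nckap1* (0.965) and *Emcn* (0.952), and for *Tet2* they included *Gad2* (0.936) and *Dlx6os1* (0.911), which are both markers of GABAergic neurons. *Dnmt1* was nearest to *Rbm28* (0.950), *Uba2* (0.937) and *Cwc22* (0.923), and *Dnmt3a* to *Tmtc4* (0.860), *Atp2a2* (0.853) and *Eea1* (0.852), the lowest values of any member. The top gene was *Gpc1* for *Tet1* (0.963), *Gm15563* for *Tet3* (0.976), *Pde7b* for *Mbd2* (0.978) and *Ik* for *Mbd3* (0.983). The points share libraries, and classes differ in depth.

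Of 50 other genes of the pathway, listed by role, 49 were tested among neural classes. Counts of these lists are from the reported fit, and their dependence on the processing was not tested. Of 8 maintenance partners 4 fell and 0 rose from RGC-like to IPC-like cells, and 5 fell and 0 rose at the step into projection neurons. Of all genes 42.2% and 46.8% passed at these steps in either direction, and 3270 and 3395 of 15357 genes were lower. The 4 of 8 called at the first step were near the share of all genes, and the 5 of 8 at the second were above it. All calls of the list were lower. *Cdca7l* and *Cdca7* fell at the former step (-3.50 and -1.51, edgeR adjusted p of 4.24e-05 and 0.000877). *Cdca7*, which activates the remodeller HELLS, and *Hells* fell at the latter (-3.17 and -2.67, edgeR adjusted p of 1.93e-05 and 1.58e-05). The list medians were -0.48 and -0.89, against 0.00 and 0.01 over all genes. Within phases 5 of the 8 were tested between IPC-like and RGC-like cells, in a fit that left out the phase scoring genes. Lower was 1, *Cdca7l*, in each of G1, S and G2M, and higher was 1, *Uhrf2*, in S. Of all genes 32.2%, 16.9% and 26.3% passed there. The medians of these 5 genes within the phases were 0.20, 0.30 and 0.22, against -0.05, -0.03 and -0.03 over all genes. They cannot be set against the -0.48 over all cells, which covers all 8 genes. Against projection neuron-like cells *Cdca7* was higher in MGE interneuron-like cells, by 3.57 (SE 0.30, edgeR adjusted p = 8.08e-05).

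Of 8 genes of oxidised base repair 3 rose from RGC-like to IPC-like cells and 3 fell on entry into projection neurons. Each share was near or below that of all genes passing in either direction (42.2% and 46.8%). *Gadd45g* and *Gadd45a*, implicated in active demethylation, rose by 2.30 and 2.18 and then fell (-4.03 and -2.24, edgeR adjusted p from 9e-06 to 0.000212). *Gadd45g* is also a leading gene of an IPC-like cluster, though it was left out of the clustering and of the naming. *Gadd45b* was higher than in RGC-like cells by 5.92 in pericyte-like and 3.45 in meningeal-like cells (edgeR adjusted p of 7e-09 and 6.37e-06).

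Of 8 other methyl-CpG readers 5 rose and 0 fell from RGC-like to IPC-like cells, where 42.2% of all genes passed, with *Zbtb38*, a zinc finger reader, at 3.07 (SE 0.15, edgeR adjusted p = 3.14e-06). In projection neuron-like against RGC-like cells 6 were higher and 1, the glycosylase gene *Mbd4*, was lower (-1.37, edgeR adjusted p = 0.000163), where 64.7% of all genes passed. *Mbd4* rose in S by 0.99 in RGC-like and by 1.78 in IPC-like cells (edgeR adjusted p of 0.00671 and 0.000241).

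Of 12 NuRD subunits 6 rose and 2 fell from RGC-like to IPC-like cells, where 42.2% of all genes passed. In projection neuron-like against RGC-like cells 4 were higher and 4 lower, a share near the 64.7% of all genes. The remodelling ATPase *Chd3* was higher in these neurons by 2.38 and the histone binder *Rbbp7* lower (-1.54, edgeR adjusted p of 2.87e-07 and 1.83e-06). In MGE interneuron-like against projection neuron-like cells 8 of 12 were lower and 0 higher. Of all genes 35.3% passed there in either direction, and 3395 of 15357 were lower. The list median was -0.54 against -0.11 over all genes, and *Cdk2ap1* was lower (-2.05, edgeR adjusted p = 8.76e-05). Without TMM factors the median over all genes moved by 0.17 in this comparison, and the list was not counted under that setting. *Mbd3* was lower in the same comparison.

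*Cxxc4*, whose protein binds TET2, exceeded its level in projection neurons in the MGE interneuron-like class by 3.05 (SE 0.21, edgeR adjusted p = 2.59e-05), while *Cxxc5* was lower (-1.78, edgeR adjusted p = 0.000632). Of the 5 genes for CXXC proteins 2 were higher and 2 lower there, where 35.3% of all genes passed. The imprint factor *Zfp57* rose at each step of the excitatory lineage, by 1.59 and 1.03 (edgeR adjusted p of 5.83e-05 and 0.000268), and its partner *Trim28* fell at the former (-0.34, edgeR adjusted p = 0.0132). Of 5 genes of methyl donor supply 1, *Ahcyl2*, was lower in IPC-like cells than in RGC-like ones (-0.68) and higher by 0.54 at the step into projection neurons (edgeR adjusted p of 0.00166 and 0.00433), a lower share than that of all genes at each step (42.2% and 46.8%).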

How the data were processed

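Single-cell UMI counts per gene and barcode were deposited by the authors for 2 libraries of 1 group, made with Cell Ranger 7.0.0 on mm10 per the submitters' processing notes. The gene annotation, intron setting and cell calling are not given in the sources used here. Counting of intronic reads would raise long genes most. Counts were used as deposited.

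Cells were required to hold between 1500 and 60000 UMIs, with less than 10% from mitochondrial genes, and predicted doublets (304 and 629 barcodes) were removed after simulation. Clusters (scanpy 1.11.5, 2000 variable genes without the 9 genes and the 50 pathway genes, 30 components, Leiden resolution 1.0) were named from markers, at least 3 per name. UMIs were summed per class and replicate and tested with edgeR 4.0.16 (quasi-likelihood, TMM, filter on low counts, Benjamini-Hochberg adjustment over all genes tested, threshold 0.05), in 1 fit of the 4 main neural classes, 1 fit of 9 classes and 1 fit of 6 class-by-phase groups. Phases used 42 S and 54 G2M genes. Classes with under 20 cells in a replicate, and red blood cell-like cells, are given as levels only.

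Sums of a replicate come from the same library, so the replicate number pairs them. Across genes, the replicate differences of the 4 neural classes correlated with 0.0386 to 0.373. The reported fit has no replicate block, and a fit with it is among the alternatives. The classes compared came from the same clustering, so p-values between classes cover the spread between libraries only. Alternatives were other scaling, DESeq2 1.42.0, no filter on low counts, a stricter filter on cells (3000 to 40000 UMIs, under 5% mitochondrial), predicted doublets kept, Leiden resolutions 0.6 and 1.5, phase scores at 1500 UMIs, the LGE neuron-like class left out (chosen after the data were seen), and each replicate alone, which gives a value with no test.

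The test was tested on simulated data, in which far fewer genes were changed than passed here between neural classes. Its outcome is left out, and the p-values do not rest on it. The genes named were the 9 members, at most 2 genes per pathway list and comparison with the largest absolute difference that passed in the same direction in both replicates, the 3 genes most like each member among those with a mean of at least 20 CPM, and the lowest and highest clusters. A result of 1 further gene is not reported here. The members and lists were chosen with earlier results of these data known. Promoter windows and positions are from RefSeq (GRCm38.p6).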

Additional observations from a re-analysis of the deposited data

Results flagged for a closer look

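The S against G1 difference of *Uhrf1* differed between progenitor classes. It was smaller in the RGC-like class (log2 difference of the effects -2.35, SE 0.32, edgeR adjusted p = 0.0123), in the same direction in both replicates (-3.03 and -1.99). G1 IPC-like cells had 6 and 26 *Uhrf1* UMIs, so the size of the difference rests on few counts. The make-up of the G1 group, which may hold cells that have left the cycle, moves with it and its part was not tested.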

How the results depend on the processing

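Values of single members under the alternatives numbered 1449. Of these, 1351 kept their direction and side of the threshold (or, for single replicates, stayed within the replicate spread). A further 31 newly passed, 20 no longer passed, 12 moved and 35 changed sign. With 2 replicates, each lies within their SD of the fitted value almost by construction, so that part of the count says little. A single replicate was counted as a sign change only where the main difference was called. The 35 thus leave out others, such as *Mbd2* from RGC-like to IPC-like cells, at -0.59 and 0.07 in the replicates. Of the sign changes, those of *Dnmt1* from RGC-like to IPC-like cells within S and G2M (0.14 and 0.18) concern a called result. Within phases 2 (G1), 3 (S) and 3 (G2M) members passed instead of 5, and in G1 5 with the replicate block and 4 with phases at 1500 UMIs. The shares of all genes given above for these phases belong to the reported fit, not to such alternatives. The other sign changes concern differences that did not pass. *Mbd3* from RGC-like to IPC-like cells became -0.043 without TMM factors, -0.022 by DESeq2, and -0.00062 and -0.032 at Leiden 0.6 and 1.5, and *Tet1* within G2M 0.11. Within G1 *Mbd2* became 0.025 without the low-count filter and 0.035 with the stricter cell filter, and *Mbd3* -0.0021 without TMM factors, and within S *Dnmt3b* became 0.042 with phases at 1500 UMIs. *Tet3* into projection neurons became 0.0048 without the low-count filter. Between neuron classes *Dnmt1* became 0.097 without TMM factors and 0.021 by DESeq2, and *Dnmt3b* 0.27 with the stricter cell filter. In Cajal-Retzius-like cells *Tet1* became 0.014 without TMM factors, 0.024 with the replicate block and 0.010 with the stricter cell filter, and *Mbd2* became -0.13 without the low-count filter, -0.030 with doublets kept, and -0.044 and -0.090 at Leiden 0.6 and 1.5. *Tet2* in endothelial-like cells became -0.11 with the stricter cell filter. In RGC-like G2M cells *Tet1* became 0.0023 without TMM factors, 0.0019 by DESeq2, 0.059 without the low-count filter, 0.018 with the stricter cell filter and 0.032 with phases at 1500 UMIs, and in IPC-like G2M cells *Tet2* became -0.030 without the low-count filter. In the difference of S effects *Dnmt3a* became 0.13 without the low-count filter, 0.00076 with the stricter cell filter and 0.13 with phases at 1500 UMIs, *Dnmt3b* 0.12 and 0.0085 under the former pair, and *Tet3* 0.058 without the low-count filter. The causes were not tested.

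With the replicate block 2878 and 2798 genes passed in S and G2M of RGC-like cells. For the difference of S effects 103 genes passed, 506 with the replicate block (2 members in place of 1), 254 by DESeq2 and 580 without the low-count filter. Calls that the block changed, those within phases included, are given in the text, and it changed no other member call. Without TMM factors the median of all genes moved by -0.13 from IPC-like and -0.22 from RGC-like to projection neuron-like cells, 0.17 between neuron classes and -0.13 in endothelial-like cells, and DESeq2 moved it by -0.11 in the second and 0.11 in the third of these. The share of calls that were higher went from 52.8% to 41.8%, from 53.5% to 41.6% and from 37.4% to 52.7% (48.1% by DESeq2) in the first 3. Of the levels, 34 of 108 moved beyond the replicate SD as means of single cells and 25 of 108 with the stricter cell filter, and 4 of 27 likeness values moved by over 0.1 as Spearman correlations, among them *Emcn* with *Dnmt3b* (0.494). The LGE neuron-like class was not found at Leiden 0.6. Depth limits the classes with few cells most.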
